A study of Homo sapiens with 8 samples.

Results

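The genes described here are 32 members of the hypoxia response, taken by symbol from a table of 34415 gene symbols: 24 genes known as targets of the hypoxia-inducible factors (HIF) and 8 components of the pathway itself. RNA was sequenced from HaCaT, a spontaneously immortalized line of human keratinocytes, which are the main cells of the epidermis. All 8 cultures spent 96 h in medium with 35 mM glucose and were transfected for 48 h with small interfering RNA, against ETV4 in 4 cultures (siETV4) and a negative control in the other 4 (siNC). The line is usually kept in 5.5 mM glucose and was used between passages 21 and 33. Every culture had high glucose and the labels name no low-oxygen culture, so the values compare the siRNAs and not glucose or oxygen. ETV4 is an ETS-family transcription factor.

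HIF is a dimer of an alpha subunit (HIF1A or EPAS1, also called HIF-2 alpha) and ARNT. When oxygen is present, the prolyl hydroxylases EGLN1, EGLN2 and EGLN3 modify the alpha subunit, VHL then binds it, and it is degraded. The asparaginyl hydroxylase HIF1AN, also called factor inhibiting HIF, blocks its contact with the coactivators CREBBP and EP300. HIF activity is thus set largely on the protein, which RNA counts do not measure. When the dimer is active it binds a short core in DNA (ACGTG or GCGTG) and raises genes for glucose use, pH control, blood vessel growth, mitophagy, collagen modification and chromatin. Several HIF targets (BNIP3, NDRG1, DDIT4) are also induced by other kinds of stress. ETS factors bind a core that holds CCGGAA in many of their sites.

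MIR210HG, BNIP3, DDIT4, CA9 and HIF1AN are among the 8 members with all siETV4 libraries below all siNC libraries, an order found in 3.93% of tested genes. The sequences below are shown for this reason and because the promoters of these genes differ in these motifs. Each is the stretch just upstream of the annotated start in RefSeq (GRCh38.p14), written 5′ to 3′ on the gene's strand. MIR210HG lies on the minus strand at chr11:568458-568637, BNIP3 on the minus strand at chr10:131981924-131982073, DDIT4 on the plus strand at chr10:72273794-72273923, CA9 on the plus strand at chr9:35673868-35673927 and HIF1AN on the plus strand at chr10:100535883-100535942. In the first 4 the capitals mark ACGTG or GCGTG on either strand, and in HIF1AN they mark CCGGAA on either strand. Where a palindromic CACGTG matches on both strands, or matches overlap, they form 1 run of capitals.
MIR210HG: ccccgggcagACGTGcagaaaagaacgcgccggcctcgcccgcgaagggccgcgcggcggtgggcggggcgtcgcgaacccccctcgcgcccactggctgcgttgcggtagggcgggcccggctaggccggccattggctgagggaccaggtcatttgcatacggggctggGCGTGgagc
BNIP3: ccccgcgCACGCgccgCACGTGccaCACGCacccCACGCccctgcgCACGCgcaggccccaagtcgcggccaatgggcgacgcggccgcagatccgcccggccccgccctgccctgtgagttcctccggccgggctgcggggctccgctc
DDIT4: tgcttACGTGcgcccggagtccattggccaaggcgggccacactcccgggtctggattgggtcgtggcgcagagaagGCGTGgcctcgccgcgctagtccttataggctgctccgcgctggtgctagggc
CA9: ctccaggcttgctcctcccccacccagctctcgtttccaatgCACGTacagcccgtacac
HIF1AN: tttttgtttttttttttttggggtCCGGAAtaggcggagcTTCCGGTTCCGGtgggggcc
MIR210HG carried 2 matches, 170 and 9 bases before the start, and DDIT4 carried 2 in the stretch printed, at 125 and 53 bases, and 2 more in its RefSeq window, 219 bases before the start and 25 after it. BNIP3 carried 6 matches between 143 and 104 bases before the start, and CA9 had 1 at 18 bases. HIF1AN carried 3 CCGGAA matches, at 36, 20 and 14 bases. BHLHE40 and KDM4B, also among the 8, held 4 matches to ACGTG or GCGTG each in their RefSeq windows and are not printed.

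RefSeq windows from 250 bases before to 50 after a start were matched for 26 of the 32 members. They were not matched for VEGFA, BNIP3L, NDRG1, HILPDA, LOXL2 and VHL. The HIF core was found in 21 of 23 windows of HIF targets (91.3%), against 60.21% of the windows of all tested genes. By gene, 18 of 19 targets held it, and P4HA2 did not. The stricter ACGTG alone was found in 65.22% of target windows and 25.44% of the windows of tested genes. CCGGAA was found in 15.62% of the members' windows and 26.7% of those of tested genes, in 4 of 26 member genes: INSIG2, ANKRD37, MXI1 and HIF1AN. These matches describe the sequence and do not show that a factor binds there.

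MIR210HG is the host transcript of miR-210, a microRNA known for its rise in hypoxia and for lowering iron-sulphur cluster and mitochondrial genes. The libraries give counts for the host RNA and not for the mature miRNAs, which are shown here only to identify the locus, from RefSeq (GRCh38.p14), both on the minus strand, miR-210-3p at chr11:568112-568133 and miR-210-5p at chr11:568150-568171. Capitals mark the seed, bases 2 to 8.
hsa-miR-210-3p: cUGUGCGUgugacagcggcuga
hsa-miR-210-5p: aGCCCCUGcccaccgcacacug

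The libraries held 35057643 to 41657753 counts. ETV4 fell to 2.61 ± 0.547 CPM (counts scaled to a common library size, per 1e+06; SD, n = 4) in siETV4 from 28.2 ± 5.64 in siNC (SD, n = 4), with a log2 fold change of -3.43 (SE 0.21) and an adjusted p of 4.64e-05 in edgeR's quasi-likelihood test. Keratinocyte markers summed to 7106 to 8218 CPM in siETV4 and 7339 to 8584 CPM in siNC, and 0 of the 12 were at 0. Fibroblast markers summed to 4.16 to 5.34 CPM in siETV4 and 3.42 to 6.44 CPM in siNC, with COL1A2 and LUM at 0. Melanocyte markers summed to 1.15 to 2.02 CPM and 1.33 to 2.29 CPM, with MLANA and TYR at 0. Immune markers (PTPRC at 0) summed to 22.02 to 24.3 CPM and 16.6 to 24.3 CPM, and endothelial markers (KDR at 0) to 15.2 to 21.9 CPM and 13.95 to 18.4 CPM. Most of the immune sum was CD68 (mean 22.5 CPM in siETV4 and 20.2 CPM in siNC). Most of the endothelial sum was CDH5 (mean 18.5 CPM in siETV4 and 14.8 CPM in siNC). Library siNC replicate 4 stood apart: across all tested genes its deviations from the gene means fell with GC content (Spearman rho -0.60), while those of the other 3 siNC libraries rose with it (0.52 to 0.63). Among the siETV4 libraries the same rho was -0.64, 0.20, -0.57 and 0.02. Results that turn on this are given below also without that library and with offsets that remove each library's trend with GC content and gene length.

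With all 8 libraries, 2 HIF targets, NDRG1 and MIR210HG, fell with siETV4, and no target rose. This is 2 of the 23 targets tested, against 0.118% of all 13572 tested genes called lower and 0.236% called in either direction (adjusted p under 0.05 in edgeR's quasi-likelihood test). Of the 7 pathway components tested, 0 were called by edgeR and 1 (HIF1AN, lower) by DESeq2, which called 0.759% of tested genes lower. An unadjusted p under 0.05 was found for 8 of the 23 targets and 2 of the 7 pathway components, beside 12.58% of all tested genes. Calls over all genes were 16 higher and 16 lower, and 16 higher and 10 lower with libraries scaled by their size alone. CA12 and EGLN2 had too few counts to be tested. Members whose groups did not overlap comprised 8 with all siETV4 libraries below all siNC libraries (3.93% of tested genes) and 1 with the opposite order (2.62% of tested genes). The 8 were BHLHE40, BNIP3, CA9, DDIT4, KDM4B, MIR210HG, NDRG1 and the hydroxylase HIF1AN, and the 1 was STC2. The median log2 fold change was -0.16 over the tested targets and -0.11 over the tested pathway components, beside -0.01 over all tested genes. With the offsets these medians were -0.19, -0.21 and 0.00, and without siNC replicate 4 they were -0.22, -0.14 and -0.02. With all libraries and no offsets the difference was negative for 16 of 23 targets (69.6%), 5 of 7 pathway components (71.4%) and 51.6% of all tested genes. In bulk RNA, fewer cells of a type and less RNA per cell cannot be told apart.

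**Figure D1:**
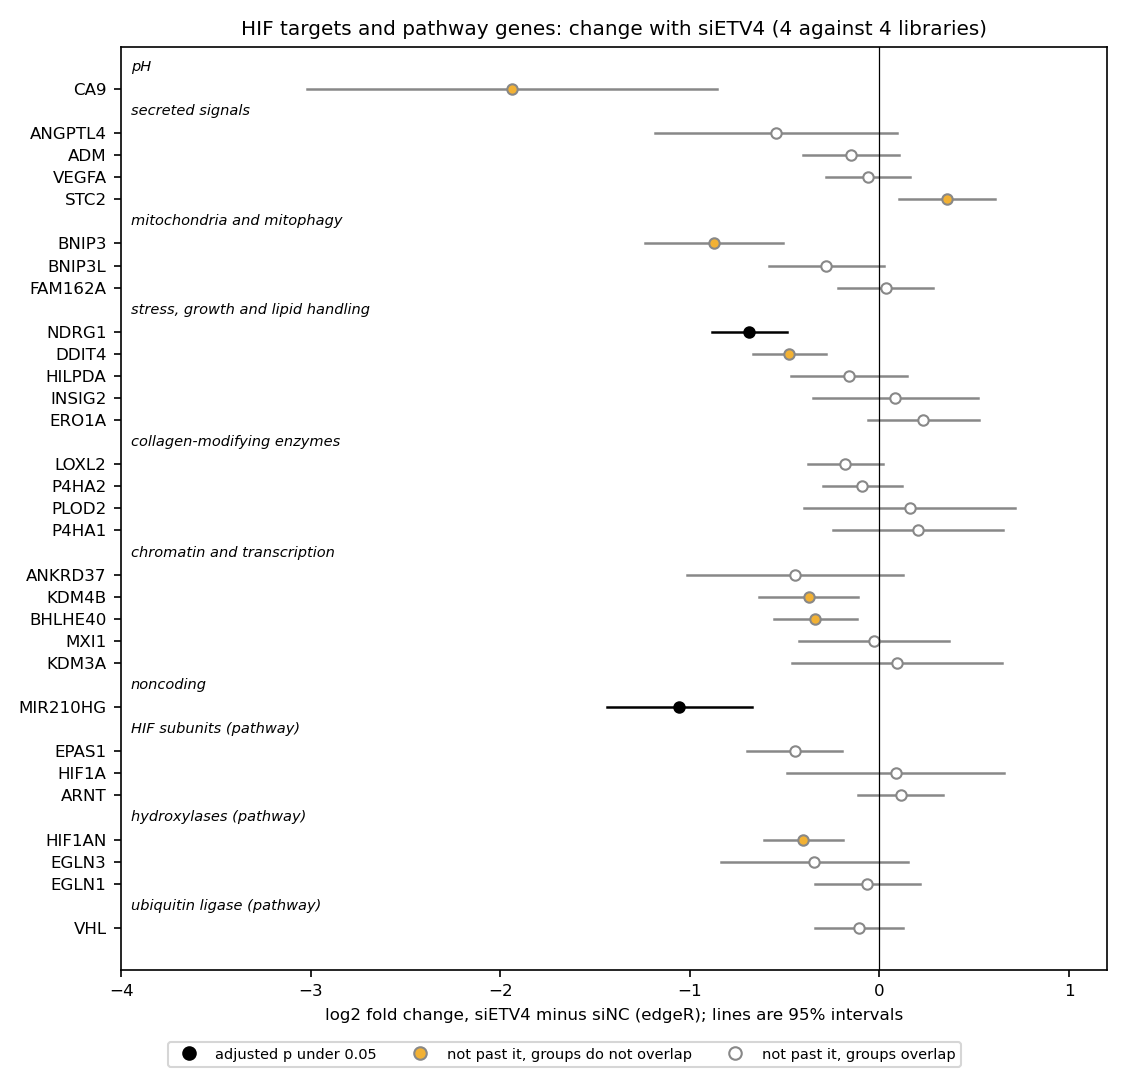
Log2 fold change of each of the 30 tested members, siETV4 minus siNC, grouped by role, with 95% intervals from edgeR (4 against 4 libraries). Filled black points passed an adjusted p of 0.05, yellow points did not pass but their groups do not overlap, and open points overlap. NDRG1 (-0.69) and MIR210HG (-1.06) are the black points.

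The members spanned a wide range of levels per gene length. In siNC, DDIT4 was the most abundant with 237 ± 17.3 FPKM (SD, n = 4), above 98.14% of tested genes and 5.48-fold over NDRG1, the next. NDRG1 (43.2 ± 3.57 FPKM), ADM (43.0 ± 4.56 FPKM) and LOXL2 (41.5 ± 1.89 FPKM) followed and did not differ beyond their spread. EPAS1 (20.6 ± 1.87 FPKM), BHLHE40 (20.5 ± 0.983 FPKM) and ERO1A (20.1 ± 4.78 FPKM) formed the next set, again within their spread. The alpha subunit gene HIF1A was at 15.9 ± 7.09 FPKM. Of the 3 prolyl hydroxylase genes, EGLN1 was at 5.43 ± 0.791 FPKM and EGLN3 at 1.78 ± 0.526 FPKM, and EGLN2 was listed near 0. The lowest tested members were CA9 (0.849 ± 0.282 FPKM) and ANGPTL4 (0.682 ± 0.143 FPKM), which are strongly hypoxia-inducible in many cells.

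**Figure D2:**
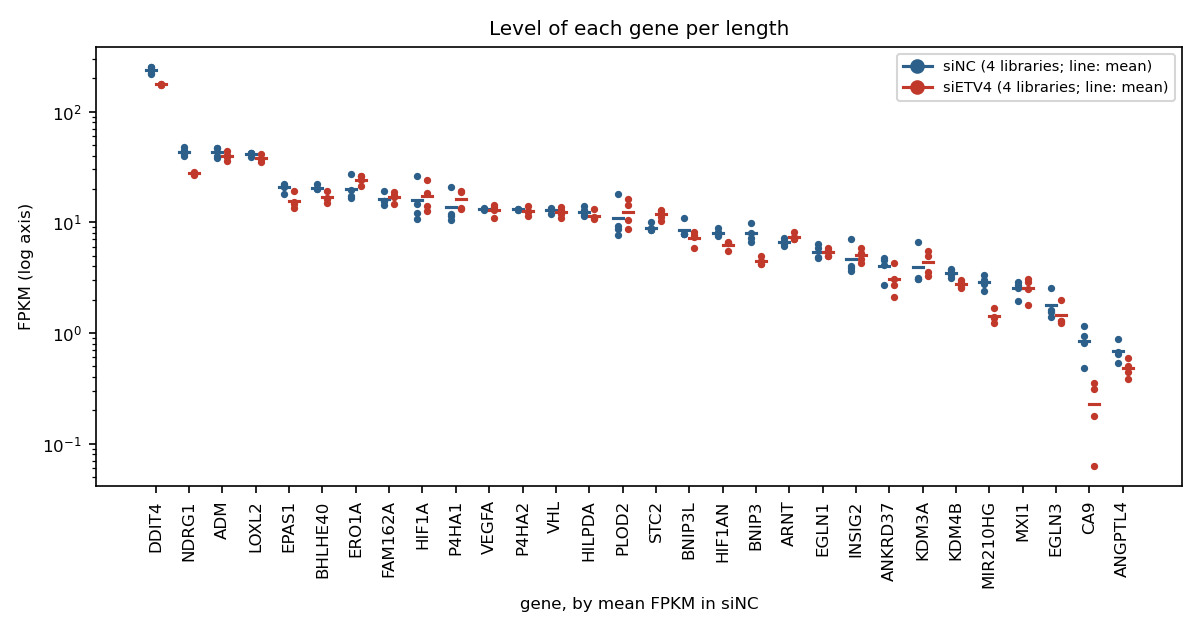
FPKM of the members on a log axis, ordered by the siNC mean, with each library as a point and the group mean as a line (siNC blue, siETV4 red). DDIT4 lies highest at a siNC mean of 237 FPKM and ANGPTL4 lowest at 0.682 FPKM, and CA12 and EGLN2 are left out.

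Of the 5 targets for stress, growth and lipid handling, NDRG1 fell and the other 4 did not pass. NDRG1, a stress-responsive protein linked to differentiation and lowered cell growth, lies on chr 8 (133237175 to 133297252). It measured 135, 134.4, 133.9 and 140.0 CPM in siETV4 replicates 1 to 4 and 199, 232, 243 and 200.2 CPM in the siNC replicates. The groups were well apart, and the siETV4 libraries varied far less than the siNC libraries (136 ± 2.87 against 218 ± 22.1 CPM, SD, n = 4). The log2 fold change was -0.69 (SE 0.09), a level 37.9% lower, with an edgeR adjusted p of 0.0114. In edgeR the adjusted p was 0.0631 without siETV4 replicate 1, 0.0626 without siETV4 replicate 3 and 0.0589 without siNC replicate 2, and under 0.05 without each of the other 5.

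DDIT4, also called REDD1, restrains the growth kinase mTORC1 under stress and was the most abundant member. It measured 301, 306, 296 and 306 CPM in siETV4 and 391, 460.2, 449 and 379.6 CPM in siNC. All 4 siETV4 values lay below the lowest siNC value, yet the log2 fold change of -0.47 (SE 0.09) had an edgeR adjusted p of 0.058. The adjusted p was 0.00569 without siNC replicate 4 (log2 fold change -0.52), 0.0242 with the GC content and length offsets (-0.35) and 6.47e-04 in DESeq2. With the offsets and each library left out in turn DDIT4 passed in 2 of 8 edgeR fits, with an adjusted p of up to 0.0749. ERO1A, which forms disulphide bonds in the endoplasmic reticulum, measured 139.6, 117, 137 and 129 CPM in siETV4 and 109, 97.6, 94.1 and 144 CPM in siNC. Its siNC replicate 4 was the highest of all 8 libraries, and the log2 fold change was 0.23 (SE 0.13, edgeR adjusted p = 0.488), 0.38 without that library (adjusted p = 0.0210) and 0.00 with the offsets (adjusted p = 0.998). HILPDA, a lipid droplet protein, differed by -0.16 (SE 0.14, adjusted p = 0.629). INSIG2, which holds back sterol synthesis, differed by 0.08 (SE 0.20, adjusted p = 0.868), and its siNC replicate 4, at 25.2 CPM, lay above siNC replicates 1 to 3 (13.9 to 15.2 CPM).

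The noncoding target MIR210HG (chr 11, 565657 to 568457) also fell. It had 117, 158, 129 and 128 counts in siETV4 and 229, 243, 311 and 255 counts in siNC, that is 2.81, 3.89, 3.10 and 3.09 CPM against 5.59, 7.22, 7.83 and 6.18 CPM. Every siETV4 library lay below every siNC library. The mean was 3.22 ± 0.464 CPM against 6.70 ± 1.01 CPM (SD, n = 4), a log2 fold change of -1.06 (SE 0.17), or a level 51.9% lower, with an edgeR adjusted p of 0.036. Leaving out siNC replicate 4 gave an adjusted p of 0.00674. Leaving out any of the other 7 libraries raised the adjusted p above 0.05, to between 0.0600 (siETV4 replicate 2) and 0.192 (siETV4 replicate 3). With the offsets the log2 fold change was -0.93 (adjusted p = 0.00752), and with each library then left out in turn the adjusted p reached at most 0.0385.

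The mitochondrial targets did not pass with all 8 libraries. BNIP3 and BNIP3L are outer-membrane receptors that mark mitochondria for mitophagy. BNIP3 (chr 10, 131967684 to 131981923) measured 6.39, 7.83, 6.23 and 6.78 CPM in siETV4 and 10.5, 16.0, 12.6 and 10.9 CPM in siNC. The groups did not overlap, with means of 6.81 ± 0.719 and 12.5 ± 2.49 CPM (SD, n = 4). The log2 fold change was -0.87 (SE 0.17) and the edgeR adjusted p 0.067. It was -0.80 with the offsets (adjusted p = 0.00495, and at most 0.0278 with each library then left out in turn) and -0.93 without siNC replicate 4 (adjusted p = 0.00762). BNIP3 overlaps PPP2R2D in the annotation, and the sources used here do not say whether counting used strand.

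BNIP3L measured 28.4, 21.3, 26.1 and 25.9 CPM in siETV4 and 28.1, 28.9, 28.6 and 37.9 CPM in siNC. The groups overlapped through siETV4 replicate 1, and siNC replicate 4 was the highest. Its log2 fold change was -0.28 (SE 0.14, edgeR adjusted p = 0.423) and became -0.52 with the offsets (adjusted p = 0.0184). With each library then left out in turn it passed in 2 of 8 fits, with an adjusted p of up to 0.0837. FAM162A, a HIF-responsive mitochondrial protein linked to cell death, differed by 0.03 (SE 0.11, adjusted p = 0.913), and by -0.20 with the offsets (adjusted p = 0.365).

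The 2 carbonic anhydrases of the list regulate pH at the cell surface. CA9 had 4, 20, 11 and 22 counts in siETV4 and 31, 51, 73 and 51 counts in siNC. The groups did not overlap, at 0.346 ± 0.204 and 1.34 ± 0.458 CPM (SD, n = 4), and the log2 fold change of -1.94 (SE 0.49) had the largest size of all tested members. At these counts its interval was wide (-3.02 to -0.86) and the edgeR adjusted p was 0.184. The adjusted p was 0.0287 without siNC replicate 4, 0.0102 in DESeq2 and 0.0717 with the offsets. CA12 had 0 counts in every library, which allows up to 0.0721 to 0.0892 CPM depending on the library (3 counts, counting error only).

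**Figure D3:**
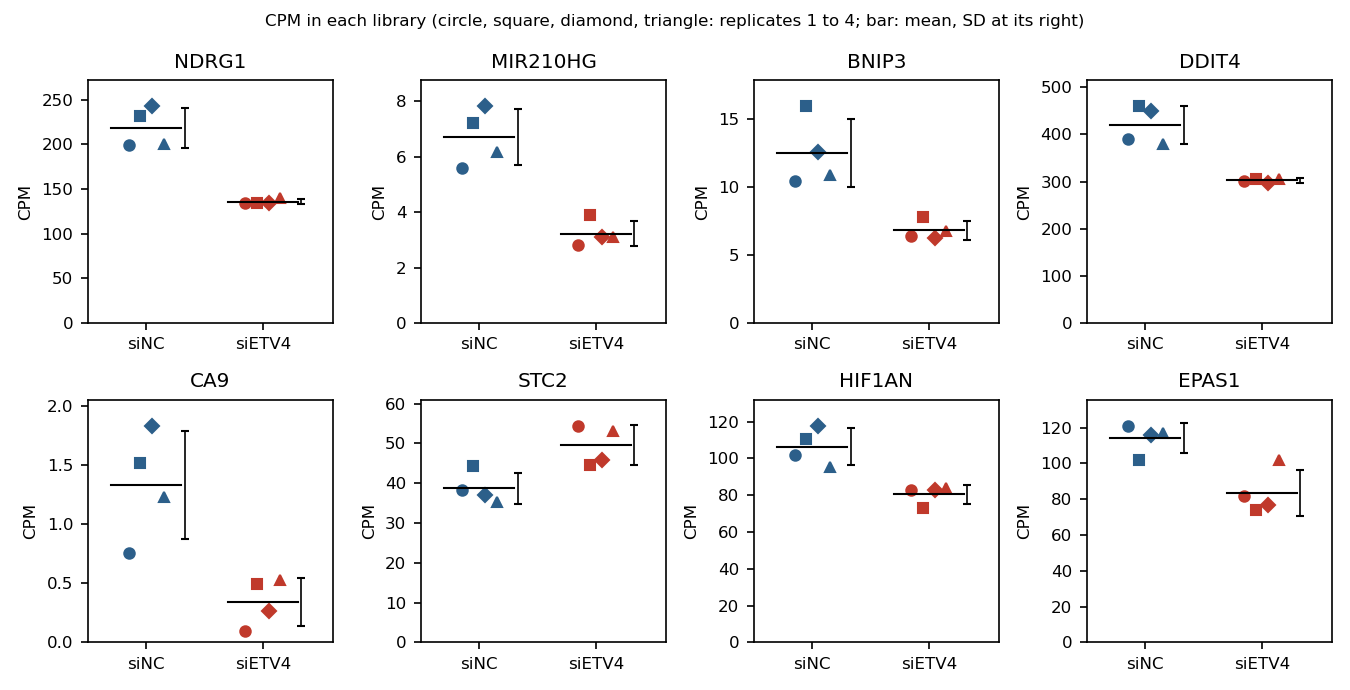
CPM in each library for 8 members (siNC blue, siETV4 red; the marker shape is the replicate number, the line the group mean, and the error bar the SD). NDRG1, MIR210HG, BNIP3, DDIT4, CA9 and HIF1AN have all 4 siETV4 libraries below all 4 siNC libraries, STC2 has them above, and EPAS1 overlaps through siETV4 replicate 4 (102 CPM).

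Among the 4 secreted targets no gene passed with all libraries. VEGFA, the main growth factor for blood vessels, measured 48.6, 42.0, 50.4 and 53.5 CPM in siETV4 and 51.2, 52.4, 49.97 and 49.3 CPM in siNC. Its groups overlapped throughout and the log2 fold change of -0.06 (SE 0.10, edgeR adjusted p = 0.812) had a 95% interval of -0.28 to 0.16. ADM, a vasodilator peptide, differed by -0.15 (SE 0.12, interval -0.41 to 0.10, adjusted p = 0.585). ANGPTL4, an inhibitor of lipoprotein lipase, differed by -0.55 (SE 0.29, adjusted p = 0.453) at a mean of 0.928 CPM in siETV4 and 1.36 CPM in siNC. STC2, a secreted glycoprotein that is also induced by stress of the endoplasmic reticulum, measured 54.5, 44.6, 45.7 and 53.2 CPM in siETV4 and 38.3, 44.2, 37.1 and 35.3 CPM in siNC. It was the only member whose siETV4 libraries all lay above the siNC libraries, although the gap between 44.6 and 44.2 CPM was narrow. The log2 fold change of 0.35 (SE 0.12) had an edgeR adjusted p of 0.290, and with the offsets it was 0.43 (adjusted p = 0.0280). With each library then left out in turn STC2 passed in 3 of 8 fits, with an adjusted p of up to 0.110.

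The collagen-modifying enzymes showed values tied to siNC replicate 4. P4HA1 and P4HA2 encode catalytic subunits of collagen prolyl hydroxylase, PLOD2 hydroxylates lysines, and LOXL2 oxidizes lysines for crosslinks. P4HA1 measured 54.1, 38.6, 53.4 and 38.5 CPM in siETV4 and 34.9, 32.1, 34.3 and 59.1 CPM in siNC. Without the last library all siETV4 values lay above all siNC values, and the log2 fold change went from 0.20 (SE 0.21, edgeR adjusted p = 0.679) to 0.45 (adjusted p = 0.0412), while the offsets gave 0.00 (adjusted p = 0.998). PLOD2 followed the same libraries, at 61.8, 34.3, 53.4 and 40.3 CPM in siETV4 and 36.3, 30.9, 34.9 and 68.0 CPM in siNC, with a log2 fold change of 0.16 (SE 0.26, adjusted p = 0.802). LOXL2 went the other way in siNC replicate 4, at 141 CPM against 161 to 164 CPM in the other siNC libraries, and differed by -0.18 (SE 0.09, adjusted p = 0.432). P4HA2 differed by -0.09 (SE 0.09, adjusted p = 0.688).

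Of the 5 targets that act on chromatin and transcription, 0 passed with all libraries in edgeR. BHLHE40 and KDM4B had all siETV4 libraries below all siNC libraries, as did 3.93% of all tested genes. BHLHE40 is a transcriptional repressor of the circadian and hypoxia responses. It measured 54.9, 52.3, 55.1 and 64.8 CPM in siETV4 and 76.8, 71.3, 72.1 and 66.8 CPM in siNC. The log2 fold change was -0.34 (SE 0.10, edgeR adjusted p = 0.256), -0.37 without siNC replicate 4 (adjusted p = 0.0253) and -0.25 with the offsets (adjusted p = 0.126). KDM4B, a histone lysine demethylase, measured 25.9, 29.7, 24.8 and 29.6 CPM in siETV4 and 38.3, 32.7, 39.1 and 32.6 CPM in siNC. The log2 fold change was -0.37 (SE 0.12, adjusted p = 0.276), -0.42 without siNC replicate 4 (adjusted p = 0.0308) and -0.19 with the offsets (adjusted p = 0.254). The related demethylase KDM3A differed by 0.09 (SE 0.25, adjusted p = 0.888), and its siNC replicate 4, at 33.2 CPM, lay above siNC replicates 1 to 3 (16.2 to 16.6 CPM). The MYC antagonist MXI1 differed by -0.03 (SE 0.18, adjusted p = 0.950) and ANKRD37 by -0.45 (SE 0.26, adjusted p = 0.491). In the annotation ANKRD37 overlaps UFSP2 and LRP2BP, FAM162A overlaps WDR5B, ETV4 overlaps DHX8, and P4HA2, BHLHE40, MXI1, EGLN1 and HIF1A overlap antisense or uncharacterized genes. Without a known strand setting the reads of such pairs cannot be told apart.

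For the 3 HIF subunit genes, no difference passed the test. HIF1A measured 99.0, 54.0, 74.4 and 58.0 CPM in siETV4 and 62.4, 46.7, 52.3 and 108 CPM in siNC. The group means of 71.3 ± 20.5 and 67.2 ± 27.7 CPM (SD, n = 4) differed by far less than the spread within either group, and the log2 fold change of 0.09 (SE 0.26, edgeR adjusted p = 0.901) had an interval of -0.49 to 0.66. With the offsets it was -0.14 (adjusted p = 0.560). EPAS1 measured 81.8, 74.0, 76.6 and 102 CPM in siETV4 and 121, 102, 116 and 117 CPM in siNC. Only siETV4 replicate 4 reached the lowest siNC library, and the means were 83.7 ± 12.8 and 114 ± 8.34 CPM (SD, n = 4). Its log2 fold change was -0.45 (SE 0.12, adjusted p = 0.188), -0.44 without siNC replicate 4 (adjusted p = 0.0256), -0.36 with the offsets (adjusted p = 0.0645) and -0.32 with both (adjusted p = 0.0427). ARNT, the shared partner, differed by 0.11 (SE 0.10, interval -0.11 to 0.34, adjusted p = 0.651).

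Among the oxygen-sensing enzymes, the prolyl hydroxylase genes EGLN1 and EGLN3 are themselves HIF targets in many cells and did not pass in any run. EGLN1 differed by -0.06 (SE 0.13, edgeR adjusted p = 0.838) and EGLN3 by -0.34 (SE 0.23, adjusted p = 0.530). The asparaginyl hydroxylase HIF1AN measured 82.9, 73.0, 82.6 and 83.9 CPM in siETV4 and 102, 111, 118 and 95.4 CPM in siNC. It was the only pathway gene whose groups did not overlap. The means were 80.6 ± 5.10 and 106 ± 9.83 CPM (SD, n = 4), and the log2 fold change was -0.40 (SE 0.10, adjusted p = 0.152). The adjusted p was 0.0266 in DESeq2, 0.0114 without siNC replicate 4, 0.0756 with the offsets and 0.00169 with the offsets and without that library. In edgeR it was 0.439 with the replicate block. With any other library left out HIF1AN did not pass, with an adjusted p of up to 0.511, and up to 0.224 with the offsets. VHL, the substrate receptor of the ubiquitin ligase, differed by -0.11 (SE 0.11, adjusted p = 0.671). EGLN2 had 1, 0, 0 and 0 counts in siETV4 and 1, 0, 6 and 0 in siNC. It lies within the span of the readthrough gene RAB4B-EGLN2, which with RAB4B was also listed at 0, so these values were not read as a level of EGLN2 RNA.

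The members' log2 fold changes, which compare the groups, fell with the GC content of the transcript. Over the 30 tested members, the log2 fold change and GC content had a Spearman rho of -0.65, against -0.55 over all tested genes, and of -0.24 with the offsets. These are descriptions across genes that share libraries. The 11 members under 45% GC had median deviations from the gene mean of -0.16, -0.29, -0.29 and 0.44 (log2) in siNC replicates 1 to 4, and of 0.22, -0.12, 0.16 and -0.13 in siETV4. The 19 members of 45% or more had 0.14, 0.16, 0.21 and 0.05 in siNC and -0.21, -0.22, -0.23 and -0.04 in siETV4. By these medians the AT-rich members were high in siNC replicate 4 and in siETV4 replicates 1 and 3, and the GC-rich members lay above their means in all 4 siNC libraries and below them in all 4 siETV4 libraries.

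**Figure D4:**
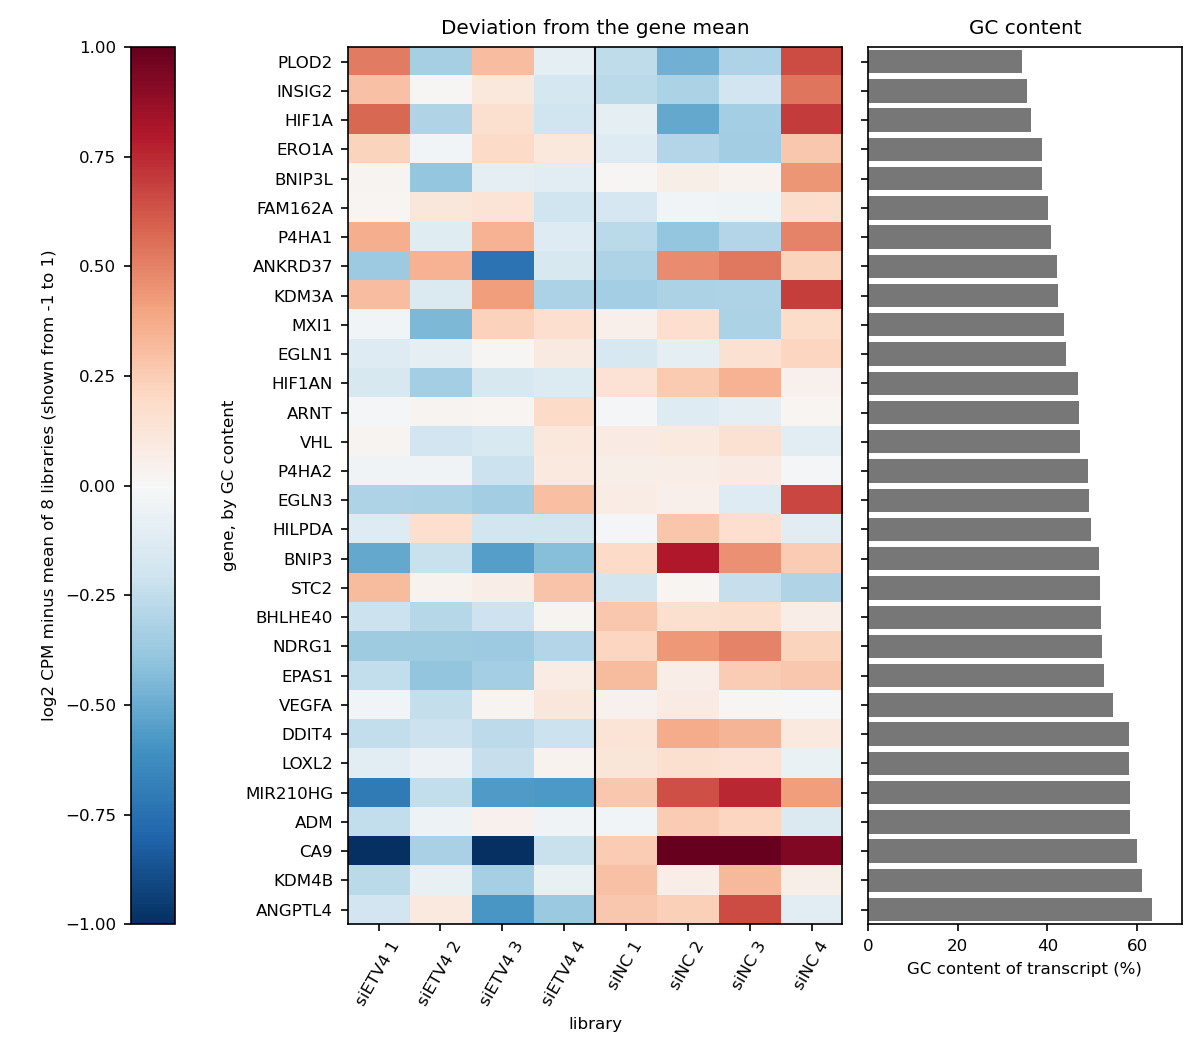
Deviation of each tested member from its mean over the 8 libraries (log2 CPM, color from -1 to 1) in order of GC content, with the GC content as bars at the right. The AT-rich genes at one end are high in siNC replicate 4 (median 0.44 under 45% GC) and low in siNC replicates 1 to 3.

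Without siNC replicate 4, 11 of the 30 members passed, ERO1A and P4HA1 higher (12% of tested genes were called higher) and 9 lower (4.88% of tested genes): BHLHE40, BNIP3, CA9, DDIT4, EPAS1, HIF1AN, KDM4B, MIR210HG and NDRG1. With the offsets and all 8 libraries, STC2 passed higher (0.894% of tested genes) and BNIP3, BNIP3L, DDIT4, MIR210HG and NDRG1 passed lower (0.878% of tested genes). With the offsets and without siNC replicate 4, EPAS1 and HIF1AN also passed lower (3.42% of tested genes). NDRG1, MIR210HG, BNIP3 and DDIT4 passed lower in each of these 3 fits, which share libraries and are not independent. BNIP3 and DDIT4 did not pass with all 8 libraries and no offsets. No member passed with the replicate block and no offsets. Without siNC replicate 4 and without offsets, every siNC library left rose with GC content (Spearman rho 0.52 to 0.63). That fit thus does not separate the siRNA from the GC trend. NDRG1, MIR210HG and BNIP3 also passed with the offsets when each library was left out in turn. The other 17 members passed in none of the alternatives run: VEGFA, ADM, ANGPTL4, FAM162A, HILPDA, INSIG2, P4HA2, PLOD2, LOXL2, KDM3A, MXI1, ANKRD37, HIF1A, ARNT, EGLN1, EGLN3 and VHL.

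**Figure D5:**
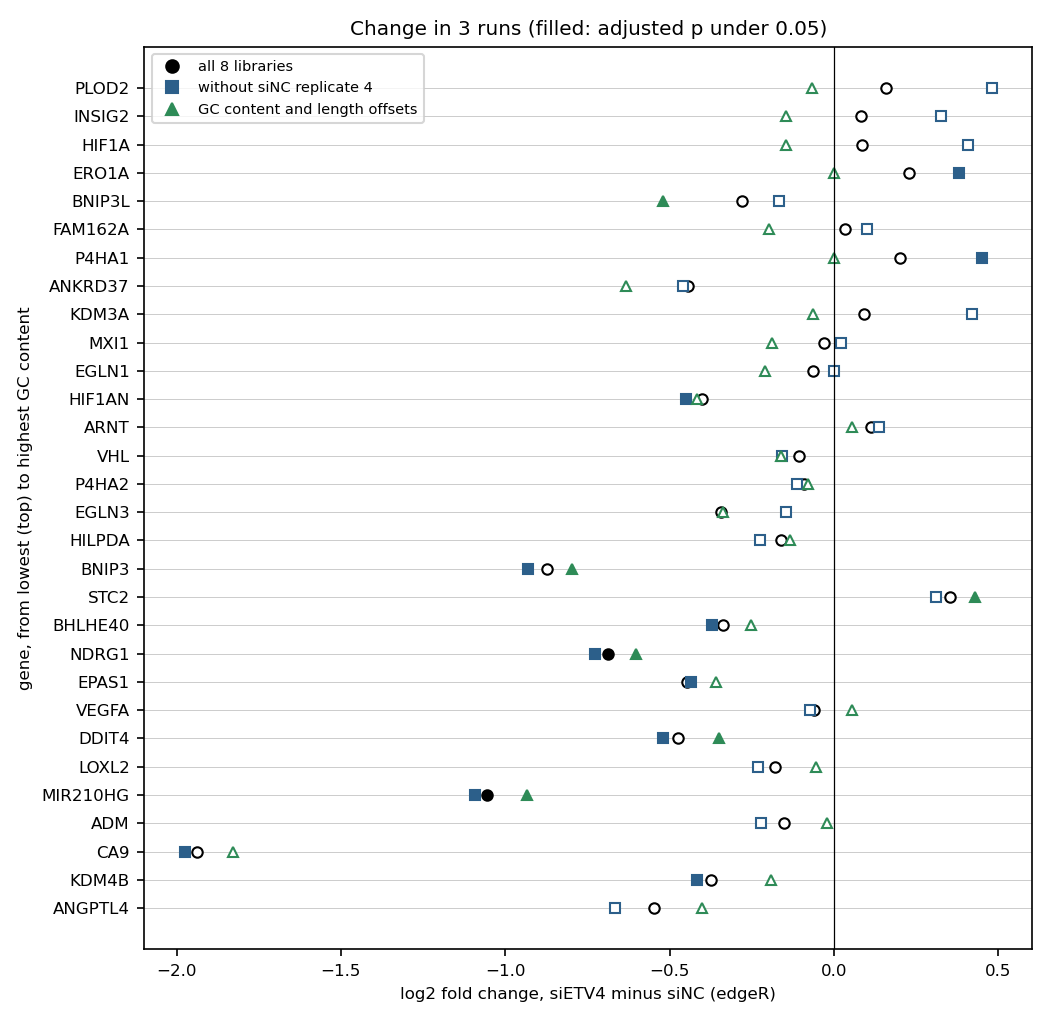
Log2 fold change of the tested members with all 8 libraries (black circles), without siNC replicate 4 (blue squares) and with the GC content and length offsets (green triangles), from lowest to highest GC content. Filled marks passed an adjusted p of 0.05, and the squares of AT-rich genes such as PLOD2 (0.48) and HIF1A (0.41) lie right of their circles.

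The other genes of the pathway were taken from 3 lists of 86 genes, of which 81 were tested. Of 24 tested genes of glucose uptake and glycolysis, 0 were called by edgeR with all libraries. In that fit 9 had an unadjusted p under 0.05 (12.58% of all tested genes), and DESeq2 called 1 lower (0.759% of tested genes). The median log2 fold change of these genes was -0.19 and 21 of 24 were negative. For 5 of them (ENO2, GPI, PFKFB4, PGAM1 and SLC2A1) the siETV4 libraries lay all below siNC, beside 3.93% of tested genes. The most abundant, GAPDH and PKM, differed by -0.30 (edgeR adjusted p = 0.345) and -0.13 (adjusted p = 0.627), and GAPDH by -0.38 without siNC replicate 4 (adjusted p = 0.0229). SLC2A1, the glucose transporter GLUT1, was chosen for mention after its values were seen. It measured 142, 159, 136 and 158 CPM in siETV4 and 213, 210.0, 203 and 172 CPM in siNC, a log2 fold change of -0.43 (adjusted p = 0.138), and passed in DESeq2, with the offsets and without siNC replicate 4. SLC2A1 did not pass in limma-voom (adjusted p = 0.1355) or in edgeR with the replicate block (0.390) or the block and offsets (0.0593). Leaving out any other library gave an edgeR adjusted p of 0.215 to 0.490. With the offsets and a library left out it ran from 0.00763 to 0.0817. In the glycolysis list 8 genes were called lower without siNC replicate 4 (4.88% of tested genes). With the offsets 2 were (LDHA and SLC2A1, beside 0.878% of tested genes).

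Of 39 tested other hypoxia-induced genes, 1 was called by edgeR with all libraries, in the higher direction (0.118% of tested genes were called higher), and it was not called when any library other than siNC replicate 4 was left out. The median log2 fold change of the list was 0.05, 16 of 39 were negative, and 7 of 39 had an unadjusted p under 0.05 (12.58% of all tested genes). The siETV4 libraries lay all below siNC for 3 of them (AK4, TMEM45B and ZNF395, beside 3.93% of tested genes). They lay all above for 1, beside 2.62% of tested genes. With the offsets 1 was called higher (0.894% of tested genes) and 2 lower (AK4 and TMEM45B, 0.878% of tested genes). Without siNC replicate 4 the calls were 5 higher (12% of tested genes) and 1 lower (4.88% of tested genes). The most abundant of that list, IGFBP3 and TFRC, differed by -0.07 (edgeR adjusted p = 0.720) and 0.23 (adjusted p = 0.711). Without siNC replicate 4 TFRC was at 0.59 (adjusted p = 0.0315), and with the offsets at 0.09 (adjusted p = 0.794). Of 18 tested components of HIF turnover and coactivation, 0 were called by edgeR or DESeq2 with all libraries and 1 had an unadjusted p under 0.05, again beside 12.58% of all tested genes. The most abundant, HSP90AA1 and RACK1, which bind HIF1A protein, differed by 0.27 (adjusted p = 0.580) and -0.14 (adjusted p = 0.560). Without siNC replicate 4 HSP90AA1 was called higher, at 0.49 (adjusted p = 0.0403), and with the offsets it was at 0.17 (adjusted p = 0.643).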

How the data were processed

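The authors deposited raw counts by gene symbol for the 8 libraries, and FPKM values that equal count over library total and gene length. The submitters' processing notes name hg38 and R 3.2.0. The sources used here name no aligner, counter, annotation or strand setting. Groups came from the labels, which describe biological replicates, and p-values measure the spread between these cultures.

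The members, lists and rule for naming genes were chosen with earlier results of these data known. Every member is named; members past the threshold, or past it in an alternative, are given per library. From each other list the genes past the threshold, or its 2 most abundant members, are named. The values of 1 gene of these lists are not reported here. In R 4.3.3, counts were tested with edgeR 4.0.16 (filterByExpr, minimum count 10, TMM, quasi-likelihood test, Benjamini-Hochberg adjustment over all 13572 tested genes, threshold 0.05). Standard errors and 95% intervals come from that fit. Levels between genes use FPKM. The limit given for a count of 0 covers counting error only.

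Alternatives were scaling by RLE factors or by library size alone, no filter or 1 CPM in 4 libraries, DESeq2 1.42.0, limma-voom (limma 3.58.1), the replicate block, leaving out each library, GC content and length offsets (splines with 5 degrees of freedom, GENCODE v29 transcripts), and limma-trend on log2 of FPKM plus 1 or 0.1 (mean FPKM of at least 0.5, or no filter). The fits were tried on simulated data made without a GC trend. There edgeR recovered 22.39% of 1.5-fold changes and 78.79% of 2-fold changes, and 23.44% and 80.65% with the offsets. A member that did not pass is therefore not shown to be unchanged. In the same simulation edgeR made 3 false calls, also 3 with the offsets, and DESeq2 made 23. A pass in DESeq2 is thus weaker evidence than a pass in edgeR. Gene positions and sequences come from RefSeq (GRCh38.p14), in which 32094 of the 34415 symbols were found. Pearson correlations of log2 CPM between libraries were 0.973 to 0.987, and the lowest chi-square per degree of freedom of a pair was 8.63.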

Additional observations from a re-analysis of the deposited data

Results flagged for a closer look

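Some members had 1 library whose gap to the nearest of its group exceeded Dixon's 95% critical value for 4 samples (0.829). Of 62 tests, those of ETV4 included, 10 did so. Chance gives about 1 in 20 for independent tests. The genes share libraries, so these tests are not independent and the count was not compared with chance. In siNC replicate 4, 6 members stood apart: BNIP3L at 37.9 CPM, INSIG2 at 25.2 CPM, P4HA1 at 59.1 CPM, PLOD2 at 68.0 CPM and KDM3A at 33.2 CPM were above the other siNC libraries, and LOXL2 at 141 CPM was below them. The 5 that were high have a GC content between 34.4% (PLOD2) and 42.5% (KDM3A), and LOXL2 has 58.2%. In siETV4 replicate 4, NDRG1 at 140.0 CPM was above the others at 133.9 to 135 CPM, and EGLN3 at 5.24 CPM above the others at 3.32 to 3.41 CPM. In siETV4 replicate 2, HILPDA at 18.3 CPM was above the others (14.3 to 14.9 CPM) and HIF1AN at 73.0 CPM below them (82.6 to 83.9 CPM).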

How the results depend on the processing

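RLE factors, library size alone, a 1 CPM filter and limma-voom left every count of calls within 1.5 times its value, except that genes called lower went from 16 to 10 with library size alone. The direction of some members with small differences turned. Of 839 recomputed member values, 698 kept direction and side of the threshold, 43 passed newly, 13 no longer passed and 85 changed sign, 0 of them past the threshold. Except where stated, the cause was not tested; leaving out a library also lowers n, and the leave-one-out fits with offsets (other than without siNC replicate 4) were chosen after seeing the data.

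The labels do not say whether the replicate numbers pair the samples. Same-numbered deviations correlated at -0.0896, 0.296, -0.138 and -0.187, and only number 2 correlated best with its own. These correlations also carry each library's GC trend and cannot settle the pairing. With the replicate block 4 genes, 0 HIF targets and 0 other HIF genes were called (NDRG1 adjusted p = 0.108), and with the block and offsets 101 genes, 3 targets, 1 pathway component and 3 other HIF genes.

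Over all genes (32 called), 54 were called with no filter, 223 with DESeq2, 226 with the offsets, 829 with the offsets without siNC replicate 4, 59 on log2 FPKM plus 1 and 59 plus 0.1. HIF targets called (2) became 4 with no filter, 5 with DESeq2, 6 with the offsets, 6 with the offsets without siNC replicate 4, 4 on log2 FPKM plus 1, 4 plus 0.1 and 1 on FPKM with no filter. Pathway components called (0) became 1 with DESeq2 and 2 with the offsets without siNC replicate 4. Other HIF genes called (1) became 2 with DESeq2, 5 with the offsets and 9 with the offsets without siNC replicate 4. The target median (-0.16) moved to -0.11 on log2 FPKM plus 1, with and without the filter, and to -0.21 with the offsets without siNC replicate 4. The pathway median (-0.11) was -0.21 with the offsets, with and without the block, -0.061 with library size alone, -0.060 on log2 FPKM plus 1, -0.065 plus 0.1, and, over 8 genes with no filter, -0.22 on counts and -0.042 on FPKM; leaving out a library gave -0.16 (without siETV4 replicate 4) to -0.063 (without siETV4 replicate 2).

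Leaving out each library in turn, the counts ran from 9 to 2327 for all genes, 0 to 9 for HIF targets, 0 to 2 for pathway components and 0 to 15 for other HIF genes, each highest without siNC replicate 4, and the target median from -0.22 (without siNC replicate 4) to -0.093 (without siNC replicate 2). With the offsets the runs added after seeing the data gave 59 to 146, 3 to 4, 0 to 1 and 1 to 4, and a pathway median (-0.11 with all libraries and no offsets) of -0.26 (without siETV4 replicate 4) to -0.16 (without siNC replicate 3).

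Signs turned with the offsets, with the offsets and block, and with the offsets without siNC replicate 4 for VEGFA (0.054, 0.049 and 0.091), FAM162A (-0.20, -0.20 and -0.26), INSIG2 (-0.14, -0.14 and -0.11) and HIF1A (-0.14, -0.14 and -0.060). They turned in the first and the second of these fits for PLOD2 (-0.066 and -0.063) and KDM3A (-0.065 and -0.058), and in the second and the third for ERO1A (-0.0017 and -0.043). MXI1 turned to 0.016 with library size alone, 0.0053 on log2 FPKM plus 1 with and without the filter, and 0.0039 plus 0.1. Leaving out each library, values ran from -0.11 to 0.0029 for VEGFA, -0.015 to 0.10 for FAM162A, -0.0049 to 0.33 for INSIG2, 0.16 to 0.38 for ERO1A, 0.11 to 0.45 for P4HA1, 0.0057 to 0.48 for PLOD2, -0.033 to 0.42 for KDM3A, -0.13 to 0.095 for MXI1, -0.22 to -0.091 for ADM and -0.11 to 0.41 for HIF1A. With the offsets as well, and siNC replicate 4 left out among the 8 runs, they ran from 0.0066 to 0.13 for VEGFA, -0.091 to 0.032 for ADM, -0.28 to -0.14 for FAM162A, -0.18 to -0.10 for INSIG2, -0.056 to 0.049 for ERO1A, -0.057 to 0.089 for P4HA1, -0.14 to 0.028 for PLOD2, -0.16 to 0.089 for KDM3A, -0.27 to -0.095 for MXI1 and -0.23 to -0.060 for HIF1A.

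A depth of 35057643 to 41657753 counts per library left CA9 with 4 to 73 counts and a wide interval, and CA12 and EGLN2 untested.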
